A study of Mus musculus with 12 samples.

Results

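The 8 genes described here, Otof, Slc17a8, Cacna1d, Cacnb2, Cabp2, Ctbp2, Bsn and Pclo, encode parts of the synapse at the base of the inner hair cell, and they were chosen by name out of the 28686 gene symbols in the table of counts. All 8 had a mean count of at least 5 and were tested, among 18459 genes that were. RNA was sequenced from the cochlear sensory epithelium of 6 mutants, Sox2CreER/+Jag1fl/fl, and 6 controls, their Sox2+/+ littermates without CreER, all at postnatal day 6. The paper pools Sox2+/+Jag1+/fl and Sox2+/+Jag1fl/fl mice as Sox2+/+, and which of them each control was is not given. Every mouse was labelled as strain C57BL/6;129SV. The paper's methods instead name C57BL/6J for the CreER line and FVB/n for the floxed Jag1 line. Every pup, controls included, received tamoxifen on postnatal days 0 and 1, which starts recombination in mice that carry CreER. CreER is made from the Sox2 locus, which is active in all supporting cell types of the cochlea, and mutants therefore carry 1 altered Sox2 allele besides the loss of Jag1. The libraries held between 28498549 and 36134983 counted reads each. Levels are given as CPM, the reads of a gene relative to all those of its library, after TMM scaling, with the SD over 6 mice, and tests are edgeR's quasi-likelihood test with Benjamini-Hochberg adjustment over all genes tested.

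Inner hair cells turn sound into the release of glutamate onto the auditory nerve. Each release site carries a ribbon, a protein body that holds vesicles above the active zone, where L-type calcium channels open as the cell depolarizes and calcium triggers fusion. This synapse shares scaffold proteins with the synapses of neurons but replaces several other components by its own: otoferlin senses calcium in place of the usual synaptotagmins, and the glutamate transporter of its vesicles is one that few neurons use. Outer hair cells hold ribbons as well. In whole tissue a lower value can come from fewer cells of a type or from less RNA per cell, and these cannot be told apart.

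Jag1, the Notch ligand that was removed, measured 102 ± 14.7 CPM (SD, n = 6) in controls and 36.4 ± 6.56 CPM (n = 6) in mutants, without overlap between the groups (log2 fold change −1.48, SE 0.13, adjusted p = 0.000258 by edgeR). Sox2 had control and mutant means of 33.9 ± 6.49 and 24.8 ± 3.60 CPM, which did not pass the test (adjusted p = 0.143 by edgeR). Among all tested genes 35 were called at an adjusted p under 0.05, or 0.19%. The hair cell marker Myo7a, a myosin of the hair bundle, averaged 16.5 ± 1.16 CPM (controls) and 16.2 ± 1.52 CPM (mutants). Of 15 hair cell markers 7 were higher and 8 lower, none was called, and those with an unadjusted p under 0.05 were Pvalb and Calb2, calcium buffers that many neurons make too. Of the 5 inner hair cell markers 4 were higher and 1 lower, and edgeR called none. Slc7a14 (7.57 ± 1.82 and 12.1 ± 4.26 CPM) and Shtn1 (31.5 ± 3.70 and 42.7 ± 8.97 CPM) were higher in mutants at an unadjusted p under 0.05. Of all tested genes 6.52% were higher at that mark, and which cells gave the reads of Slc7a14 and Shtn1 was not tested. The log2 fold changes of Fgf8, Atp2a3 and Tbx2 were 0.030, 0.044 and −0.054. Summed, the 5 markers gave 164 to 191 CPM in controls and 159 to 200 CPM in mutants. Tbx2 was the largest part, with means of 101 CPM in controls and 96.9 CPM in mutants. The 17 neuron markers summed to between 328 and 526 CPM in controls and between 403 and 1879 CPM in mutants. The 13 Schwann cell markers summed to 469 to 1454 CPM in controls and 1211 to 6301 CPM in mutants. Of the neuron markers 15 were higher in mutants at an unadjusted p under 0.05, and so were 12 of the Schwann cell markers, beside the same 6.52% of all genes. None of either list was called by edgeR.

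None of the 8 ribbon synapse genes was called. The background for that count is the 0.19% of all tested genes that edgeR called. DESeq2 and limma-voom called none of the 8 either, although DESeq2 called 3.37% of the genes it gave an adjusted p. At an unadjusted p under 0.05 edgeR placed 2 of the 8 higher in mutants, Bsn and Pclo, where 6.52% of all tested genes reached the same mark, and none lower, where 4.04% did. DESeq2 and limma-voom also placed 2 of the 8 there, beside 6.2% and 5.81% of all genes by the same tools. No member had groups without overlap, which 0.997% of all tested genes had in either direction. The median log2 fold change of the members was 0.13, beside 0.0030 over all genes tested. The other 6 had log2 fold changes between −0.19 (Cabp2) and 0.19 (Slc17a8), whereas the relative spread of Bsn and Pclo among mutants was 45.9% and 64.1%.

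**Figure D1:**
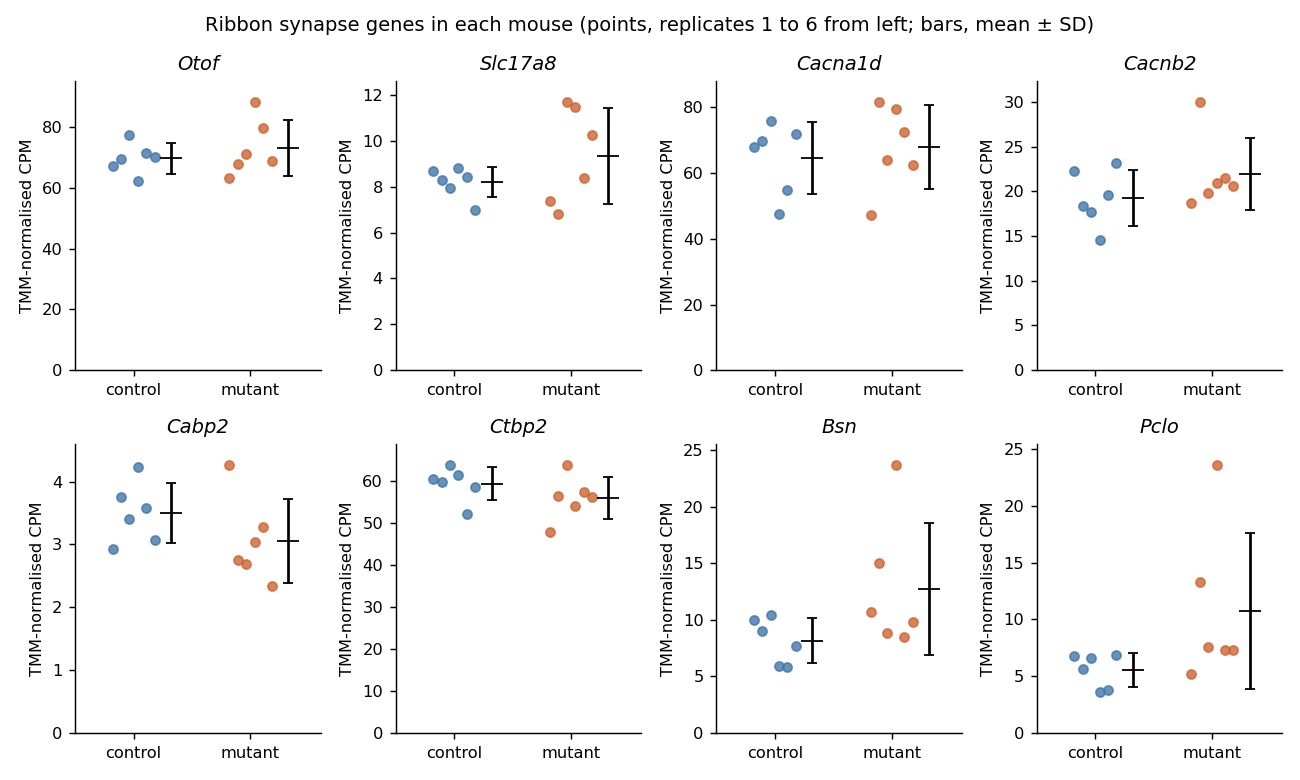
Level of each of the 8 ribbon synapse genes in TMM-normalised CPM (vertical axes, from 0) in the 6 controls and 6 mutants (points, replicates 1 to 6 from left), with the mean and SD of each group as a bar. Every panel has overlapping groups, and mutant 4 stands at the top for Bsn (23.7 CPM) and Pclo (23.6 CPM).

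Otof (chr5:30367062-30461932, GRCm38, minus strand) encodes otoferlin, the calcium sensor of vesicle fusion in hair cells. In controls it lay between 62.4 and 77.5 CPM with a median of 69.8 CPM, and in mutants between 63.2 and 88.2 CPM with a median of 70.1 CPM. The groups overlapped almost wholly, with 2 mutants above the highest control and none below the lowest. The log2 fold change was 0.07 (SE 0.081), with an adjusted p of 0.868 by edgeR and p = 0.457 by an exact two-sided permutation test over the 924 divisions of the 12 mice. The 95% interval of the fold, 0.927 to 1.19, leaves room for a decrease or an increase of moderate size. The gene was read at 1889 counts or more in every library, where counting alone gives it a relative error of about 2.05%, against a relative spread of 7.14% between controls.

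Slc17a8 (chr10:89574020-89621253, minus strand) encodes the vesicular glutamate transporter that fills the vesicles of inner hair cells. The lowest, median and highest controls read 7.0, 8.36 and 8.82 CPM, and the mutants 6.79, 9.30 and 11.7 CPM. Here 3 mutants (3, 4 and 6) lay above every control and 1 (mutant 2) below every control, so the mutants surrounded the controls. The relative spread was 8.08% in controls and 22.5% in mutants, and the log2 fold change of 0.19 (SE 0.14) did not pass the test (adjusted p = 0.739 by edgeR; exact permutation p = 0.286).

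Cacna1d (chr14:30039939-30491455, minus strand) encodes the pore of the L-type calcium channel through which nearly all calcium enters the inner hair cell. Its controls ran from 47.4 to 75.7 CPM, median 68.7, and its mutants from 47.1 to 81.5 CPM, median 68.3. Mice of both genotypes fell into the same low range, controls 4 and 5 with 47.4 and 55.0 CPM and mutant 1 with 47.1 CPM. A log2 fold change of 0.07 resulted (SE 0.14, adjusted p = 0.934 by edgeR; exact permutation p = 0.682), and without control 4 it was −0.0027. The gene shares 589 exon bases with Chdh on the other strand, and whether the counting used strand is not given in the sources used here.

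Cacnb2 (chr2:14603088-14987908, plus strand) encodes the auxiliary beta subunit that brings this channel to the membrane of the inner hair cell. Control values ran from 14.6 to 23.2 CPM around a median of 19.0, and mutant values from 18.6 to 29.9 CPM around a median of 20.8. Mutant 2, at 29.9 CPM, was the only mutant above the highest control, and the next mutant stood at 21.5 CPM. This gave a log2 fold change of 0.18 (SE 0.13, adjusted p = 0.716 by edgeR; exact permutation p = 0.242). The pseudogene Gm10849 on the other strand shares 618 exon bases with Cacnb2. Without mutant 2 the 5 remaining mutants and the controls differed by 0.075 on the log2 scale.

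Cabp2 (chr19:4081578-4087340, plus strand) encodes a calmodulin-like protein that slows the inactivation of the hair cell calcium channel. It was the rarest of the 8 by CPM. Controls lay between 2.92 and 4.24 CPM with a median of 3.49, and mutants between 2.34 and 4.26 CPM with a median of 2.90. Of the mutants 3 (2, 3 and 6) fell below the lowest control, while mutant 1 was the highest of all 12 mice. Its log2 fold change was −0.19 (SE 0.15, adjusted p = 0.773 by edgeR; exact permutation p = 0.188). With a mean of 108 counts per library, counting alone contributes a relative error of 9.60%, of a relative spread of 13.6% between controls.

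Ctbp2 (chr7:132987563-133124354, minus strand) makes the main protein of the ribbon, RIBEYE, from a start of its own within the gene, and the transcriptional corepressor CtBP2 from another. GENCODE vM21 lists 20 transcripts. The coding part of the longest, Ctbp2-214, has 2964 bases and that of Ctbp2-201, which starts upstream of it on the minus strand, has 1335, of which 1277 are shared with the longer. The beginnings of both coding parts are shown because they are where the ribbon form and the corepressor differ, while the count per gene joins them. Capitals mark the start codon, and the sequences were read from the GENCODE transcripts, 5′ to 3′, at chr7:133015145-133015204 for the first and chr7:133025713-133025770 for the second (GRCm38, minus strand).
Ctbp2-214: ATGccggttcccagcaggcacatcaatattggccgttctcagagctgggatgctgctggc
Ctbp2-201: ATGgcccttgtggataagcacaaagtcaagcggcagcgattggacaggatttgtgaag
The 1687 coding bases that belong only to the longer form lie behind the first of these starts, and the shorter form has 58 of its own. The counts give 1 value per gene, so the level of the ribbon form alone was not measured.

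At the level of the gene, Ctbp2 was among the steadiest of the 8. Its controls ran from 52.2 to 63.9 CPM, median 60.3, and its mutants from 48.0 to 63.8 CPM, median 56.4. No mutant exceeded the highest control and mutant 1 alone lay below the lowest. The log2 fold change was −0.09 (SE 0.070, adjusted p = 0.787 by edgeR; exact permutation p = 0.229), and the 95% interval of the fold was 0.846 to 1.05. Because CtBP2 the corepressor is made by most cell types, this value is not that of hair cells alone. A stretch of 314 exon bases also belongs to Fgfr2 in the annotation, on the same strand.

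Bsn (chr9:108096022-108190384, minus strand) encodes bassoon, a giant scaffold protein that anchors the ribbon to the active zone and is also made at most synapses of neurons. In controls it lay between 5.81 and 10.4 CPM with a median of 8.36, and in mutants between 8.48 and 23.7 CPM with a median of 10.2. Mutants 1, 2 and 4 exceeded every control, with 10.7, 15.0 and 23.7 CPM, and the other mutants (3, 5 and 6, at 8.84, 8.48 and 9.79 CPM) lay inside the range of the controls. The means were 8.14 ± 2.0 CPM (SD, n = 6) and 12.7 ± 5.84 CPM (n = 6). The log2 fold change was 0.65 (SE 0.26), with p = 0.025 and an adjusted p of 0.356 by edgeR, and the exact permutation p was 0.0628.

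Pclo (chr5:14514918-14863459, plus strand) encodes piccolo, bassoon's larger relative, of which ribbon synapses use a short form. The controls lay between 3.61 and 6.83 CPM with a median of 6.13, and the mutants between 5.21 and 23.6 CPM with a median of 7.44. All mutants but mutant 1 exceeded every control, but 3 of these 5 did so narrowly, at 7.30 to 7.57 CPM, and mutants 2 and 4 stood apart at 13.3 and 23.6 CPM. The means were 5.54 ± 1.49 CPM in controls and 10.7 ± 6.86 CPM in mutants, which is a relative spread of 26.9% against 64.1%. The log2 fold change was 0.95 (SE 0.35, p = 0.0169, adjusted p = 0.293 by edgeR), and the exact permutation p, not adjusted for the 8 genes, was 0.0411. The antisense transcripts Gm26918 and Gm26954 share 429 and 496 exon bases with Pclo, and without strand in the counting their reads could not be told apart.

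Mutant 4, the highest mouse for Bsn and Pclo, also had the highest sum of neuron markers of all 12 mice, 1879 CPM. Without it the log2 fold change was 0.38 for Bsn (adjusted p = 0.571 by edgeR) and 0.56 for Pclo (adjusted p = 0.451). With the neuron score of each mouse, the mean log2(CPM + 0.1) of the 17 markers, in the model, the genotype term was −0.14 (SE 0.21) for Bsn and 0.058 (SE 0.33) for Pclo, and neither was below an unadjusted p of 0.05. With the score of the 15 hair cell markers instead, the terms were 0.13 (SE 0.43) for Bsn and 0.40 (SE 0.58) for Pclo. The same models called 2 and 3 of all genes, and 1.41% and 1.38% of all genes were higher in mutants at an unadjusted p under 0.05, beside 6.52% without a score. Both scores were themselves higher on average in mutants. The means in controls and mutants were 2.84 and 4.52 for the neuron score, and 2.77 and 2.94 for the score of 15 hair cell markers. These models therefore cannot fully separate genotype from score. A hair cell score of 13 markers, without Pvalb and Calb2, was formed after the data were seen. With it in the model the terms stayed at 0.62 (SE 0.25) for Bsn and 0.88 (SE 0.31) for Pclo. Their adjusted p was 0.369 and 0.271 by edgeR, in a fit that called 59 of all genes. DESeq2 came nearest to calling a member, with an adjusted p of 0.0684 for Pclo, and gave 0.171 for Bsn.

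**Figure D2:**
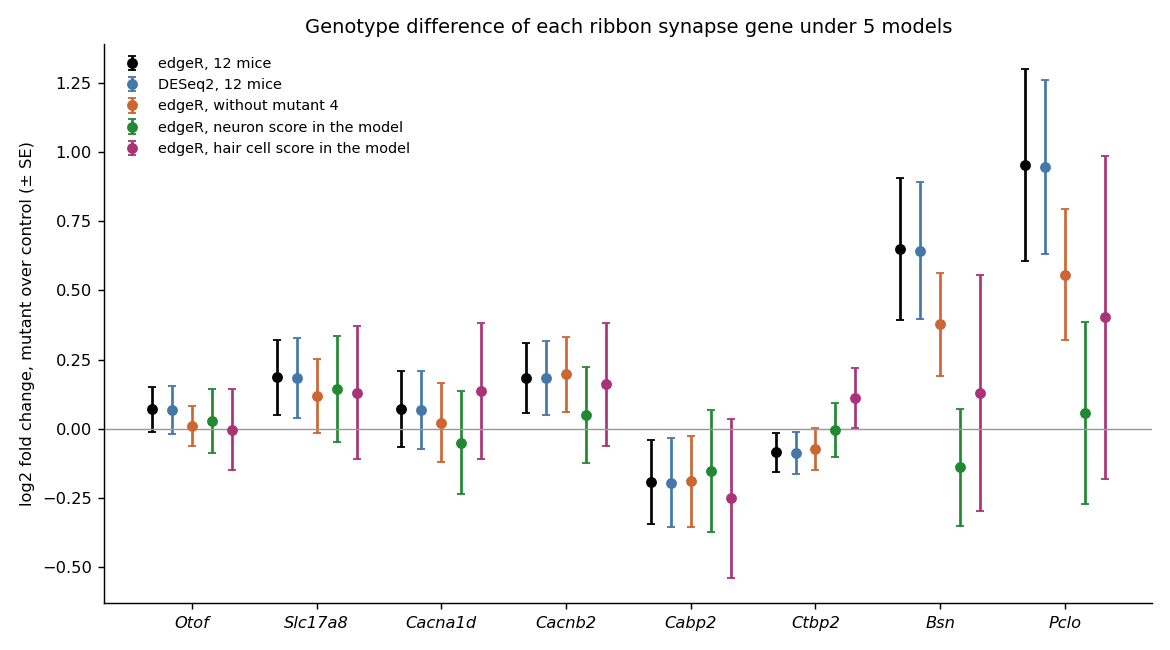
Log2 fold change of each ribbon synapse gene, mutant over control (vertical axis, with its SE), by edgeR and DESeq2 on 12 mice, by edgeR without mutant 4, and by edgeR with the neuron score or the hair cell score in the model. Bsn and Pclo lie at 0.65 and 0.95 in the first, at −0.14 and 0.058 with the neuron score and at 0.13 and 0.40 with the hair cell score, and the other 6 genes lie between −0.25 and 0.20 in all 5. The hair cell score drawn here includes Pvalb and Calb2, and both scores were higher on average in mutants.

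A further view of these genes is how they vary from mouse to mouse within a genotype. After the mean of its genotype was taken from each value, each member was correlated over the 12 mice with the hair cell score and with the neuron score, 16 relations in all, each with permutation p-values adjusted over the 16. Bsn followed the neuron score (Pearson r = 0.82, permutation p = 0.00133, adjusted p = 0.0213; Spearman rho = 0.72, adjusted p = 0.172; r = 0.62 without the 2 mice farthest from the median score). Pclo gave r = 0.66 with the neuron score (permutation p = 0.0216, rho = 0.56, adjusted permutation p = 0.115 and 0.282), which fell to 0.37 without the 2 farthest mice. The relation of Bsn no longer passed when mutant 4, mutant 3 or control 4 was left out (adjusted permutation p of 0.253, 0.0616 and 0.0600), and that of Pclo had r = 0.34 without mutant 4 but passed without mutant 1 (r = 0.83, adjusted permutation p = 0.0184). For the 6 other members r with the neuron score lay between −0.37 and 0.31.

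With the score of the 15 hair cell markers no member passed. Ctbp2 came nearest, in the negative direction (r = −0.66, permutation p = 0.0182, rho = −0.66, adjusted permutation p = 0.115 and 0.184; r = −0.89 without the 2 farthest mice), and passed without control 1 (adjusted permutation p = 0.0236), and the other 7 lay between −0.096 and 0.35. Otof, which is made in hair cells, had r = 0.17. Since Pvalb and Calb2 had the largest fold changes in that score, a score of the other 13 markers was formed after the data were seen, and with it Otof had r = 0.79 (permutation p = 0.0020, rho = 0.71, adjusted permutation p = 0.0107 and 0.0504 over 16 added relations; r = 0.63 without the 2 farthest mice). Slc17a8 had r = 0.51 with the same score (rho = 0.31, adjusted permutation p = 0.179 and 0.568), and without the 2 farthest mice −0.046. The relation of Ctbp2 was near absent with it (r = −0.099, rho = −0.20, adjusted permutation p = 0.810 and 0.793). The remaining members had r between −0.11 (Cacnb2) and 0.42 (Pclo). The genotype terms of Otof and Slc17a8 remained small in a model with that score, with 0.061 (SE 0.062) for Otof.

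Members also varied together. Of the 28 pairs, Bsn with Pclo (r = 0.90, permutation p = 0.00019, rho = 0.76, adjusted permutation p = 0.00532 and 0.0764; r = 0.91 without the 2 farthest mice) and Cacna1d with Pclo (r = 0.82, permutation p = 0.00087, rho = 0.92, adjusted permutation p = 0.0122 and 0.00196; r = 0.85) passed by Pearson's r. The lowest r was that of Cacna1d with Cabp2, the channel and its modulator (r = −0.58, rho = −0.33, adjusted permutation p = 0.188 and 0.750). By merged exon length the 8 genes run from Pclo (22.46 kb), Bsn (15.94 kb), Cacnb2 (13.23 kb) and Cacna1d (12.62 kb) through Otof (7.90 kb), Ctbp2 (6.22 kb) and Slc17a8 (4.72 kb) to Cabp2 (1.35 kb).

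A length contrast was computed for each mouse after the data were seen: the mean log2(CPM + 0.1) of the 1363 genes in the longest 10% by merged exon length less that of the 1363 in the shortest 10%, without the members. Both 10% were taken among genes with an annotated length and a mean count of at least 50, not among all genes tested. The contrast ran from 1.64 to 2.09 in controls and from 1.44 in mutant 1 to 2.26 in mutants, with means of 1.89 and 1.98 (exact permutation p = 0.554). Cacna1d followed it within genotypes (r = 0.92, permutation p = 7.0e-05, rho = 0.88, adjusted permutation p = 0.00112 and 0.00296; r = 0.81 without the 2 farthest mice), and so did Pclo (r = 0.84, permutation p = 0.00099, rho = 0.97, adjusted permutation p = 0.00792 and 0.00016; r = 0.82). Bsn passed by rank alone (r = 0.63, permutation p = 0.0287, rho = 0.80, adjusted permutation p = 0.0765 and 0.0159; r = 0.78 without the 2 farthest mice). Cabp2 ran against it (r = −0.75, permutation p = 0.00521, rho = −0.62, adjusted permutation p = 0.0208 and 0.0973), though not past the threshold without control 1, control 4 or mutant 1, and its r was −0.30 without the 2 farthest mice. The low Cacna1d values named above, in controls 4 and 5 and mutant 1, belong to the 3 mice with the lowest contrast. RNA integrity is stated only over all libraries together, and its part in these relations was not tested. With the contrast in the model the genotype term was −0.025 (SE 0.065) for Cacna1d, −0.13 (SE 0.12) for Cabp2 and 0.67 (SE 0.20, adjusted p = 0.147 by edgeR) for Pclo.

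**Figure D3:**
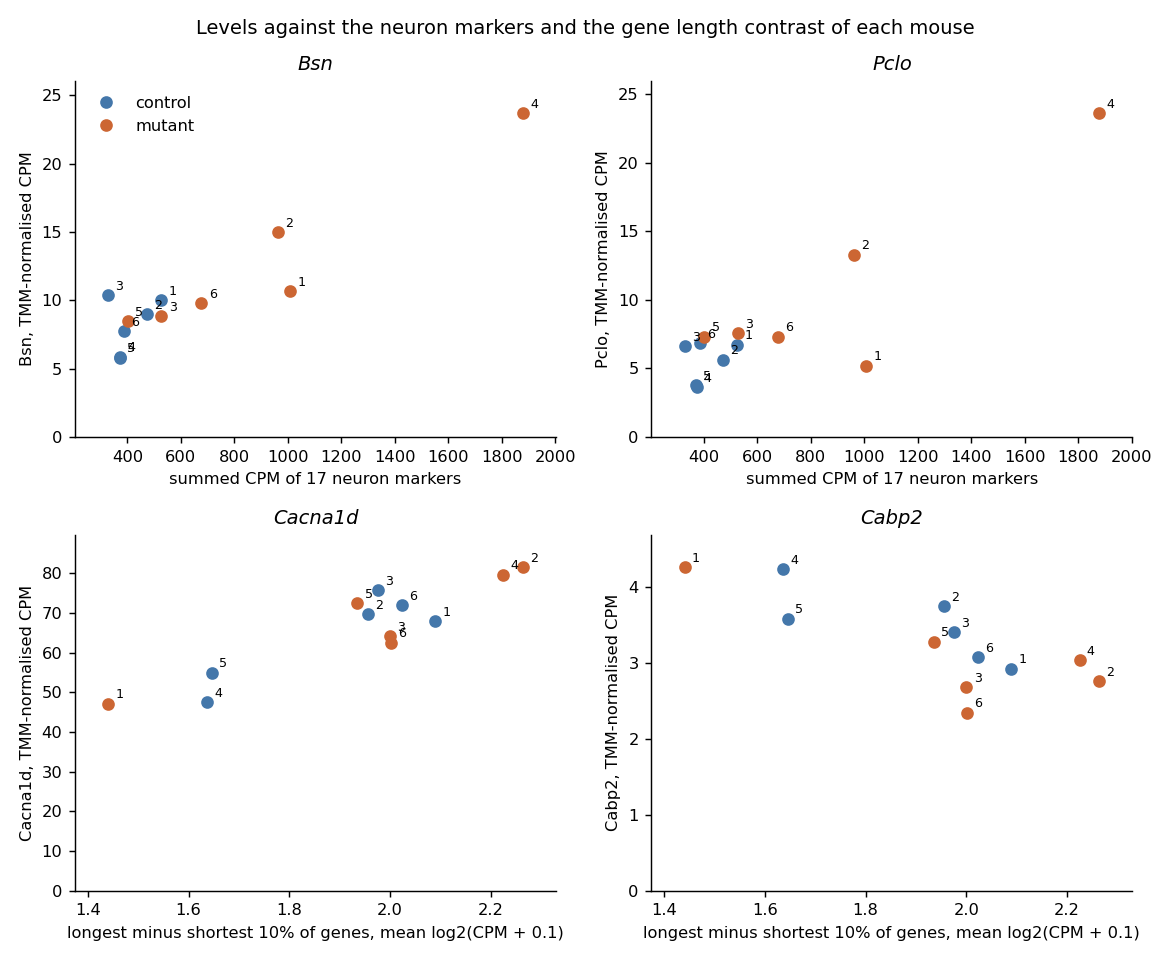
Upper panels, Bsn and Pclo in TMM-normalised CPM against the summed CPM of the 17 neuron markers; lower panels, Cacna1d and Cabp2 against the gene length contrast (log2 scale), for 6 controls and 6 mutants with replicate numbers beside the points. Mutant 4 is alone at the upper right for Bsn and Pclo, and at the lowest contrasts, in controls 4 and 5 and mutant 1, Cacna1d is lowest, while Cabp2 is highest in mutant 1 and control 4.

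To compare levels between genes, CPM were divided by the merged exon length of each gene in kb. On this scale the members of the synapse ranked in controls as Ctbp2 (9.56 ± 0.64 CPM per kb, n = 6), Otof (8.82 ± 0.63), Cacna1d (5.12 ± 0.87), Cabp2 (2.59 ± 0.35), Slc17a8 (1.74 ± 0.14), Cacnb2 (1.46 ± 0.24), Bsn (0.51 ± 0.13) and Pclo (0.25 ± 0.066). Ctbp2 and Otof overlapped over the controls, as did Slc17a8 and Cacnb2, and the other neighbours did not. In mutants Cabp2 with Slc17a8, Cacnb2 with Bsn and Bsn with Pclo overlapped as well. Merged exons overstate the length of a gene that uses short transcripts only, so these levels of Pclo and Ctbp2 depend on the annotation.

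Against their closest relatives the members were not always the most abundant. Cacna1d was above Cacna1c, the L-type pore of muscle and many other cells (1.43 ± 0.25 CPM per kb in controls), and the retinal pore Cacna1f never exceeded 3 raw counts. Cacnb2 in contrast was exceeded by Cacnb3 (24.0 ± 1.51 CPM per kb) and Cacnb1 (2.79 ± 0.28), and Ctbp2 by its paralog Ctbp1 (42.5 ± 2.59), both of them widely expressed genes. Otof lay beside the ferlin Myof (8.46 ± 2.02) and above Dysf (3.36 ± 0.35), the ferlin of membrane repair in muscle. Cabp2 stood above its relative Cabp1, which was at 0.20 ± 0.079 CPM per kb in controls and 0.57 ± 0.28 in mutants.

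Of the vesicular glutamate transporters Slc17a8 had the highest level per kb of the 3 in all 6 controls, and in mutants 3 and 5, and its share of their summed level per kb ran from 49.0% to 90.5% in controls, median 78.5%, and from 17.7% to 74.5% in mutants, median 32.1%. The groups overlapped, since mutant 5 had the highest share among mutants. The other 2 fill vesicles in spiral ganglion and brain neurons. Slc17a6 measured 1.35 ± 0.569 CPM in controls and 8.29 ± 8.93 CPM in mutants (log2 fold change 2.62, SE 0.68, adjusted p = 0.122 by edgeR), and Slc17a7 measured 2.84 ± 3.24 and 16.1 ± 11.3 CPM (2.51, SE 0.86, adjusted p = 0.267 by edgeR). Neither was called, and the share was examined after the data were seen and was not tested.

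**Figure D4:**
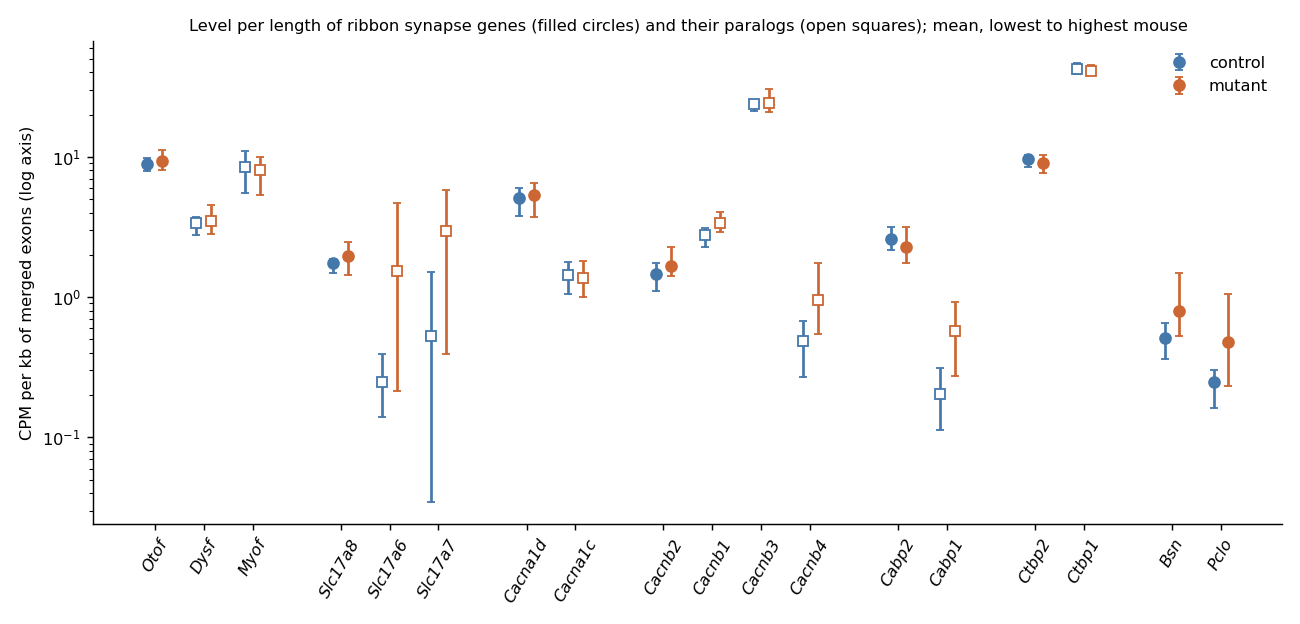
Level per length (CPM per kb of merged exons, log axis) of the ribbon synapse genes (filled circles) and their paralogs (open squares) in controls and mutants, as the mean with bars from the lowest to the highest mouse. Ctbp2, Otof and Cacna1d lie highest among the members, and the widest bars are those of the neuronal transporters Slc17a6 and Slc17a7.

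A list of 46 presynaptic partners of the members, among which 43 could be tested, gave 1 called gene. Rims1, an active zone scaffold that links calcium channels to vesicles, rose from 2.74 ± 0.42 to 6.51 ± 2.46 CPM (log2 fold change 1.24, SE 0.22, adjusted p = 0.0432 by edgeR). The lowest mutant stood at 3.42 CPM and the highest control at 3.33 CPM. Which cells gave these Rims1 reads was not tested. At an unadjusted p under 0.05, 18 of the 43 were higher in mutants and none was lower, beside the 6.52% and 4.04% of all genes, and the median log2 fold change was 0.20. DESeq2 called 10 of them and limma-voom none, and edgeR called none when any of the 6 controls or mutant 1, 2 or 6 was left out. With the neuron score in the model, and likewise with the hair cell score, edgeR called none and placed 1 of the 43 at an unadjusted p under 0.05, in fits that called 2 and 3 of all genes. Since both scores were higher on average in mutants, these fits cannot fully separate genotype from score.

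The roles did not contribute alike. Among the 14 scaffold and priming genes 7 reached an unadjusted p under 0.05, all higher in mutants, and the median was 0.48; Unc13b, a vesicle priming factor, had the smallest p of those that were lower (−0.11, adjusted p = 0.753 by edgeR). Of 9 genes of vesicle endocytosis 5 did, led by Snap91, a clathrin assembly protein of nerve terminals, at 21.6 ± 1.85 and 32.8 ± 7.42 CPM (0.60, SE 0.13, adjusted p = 0.0738 by edgeR), whose groups did not overlap, while the widely expressed endophilin Sh3gl1 was lower (−0.12, adjusted p = 0.544). The 8 tested calcium channel subunits had 3, led by Cacnb4 with 4.35 ± 1.42 and 8.49 ± 4.12 CPM (0.96, adjusted p = 0.182), and Cacna2d2, the alpha2delta subunit of inner hair cells, lay at 73.2 ± 4.48 and 71.1 ± 7.66 CPM (−0.041, adjusted p = 0.926).

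Among the calcium-binding proteins Cabp1 went from 1.19 ± 0.459 to 3.34 ± 1.61 CPM (1.49, SE 0.34, adjusted p = 0.0834 by edgeR), and Cabp7 had −0.22 (adjusted p = 0.694). Of the 7 tested partners and relatives of otoferlin none reached an unadjusted p under 0.05 in either direction. In this role Caml, which the list named Camlg and which with Wrb inserts otoferlin into membranes, had the smallest p among those higher (0.088, adjusted p = 0.735), Fer1l6 among those lower (−0.23, adjusted p = 0.737), and the hair cell motor Myo6 stood at 318 ± 19.3 and 325 ± 36.7 CPM. The 3 partners that were not tested, Cacna1f, Cabp5 and Fer1l4, reached at most 4 raw counts in any library.

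On the postsynaptic side 14 genes were tested and none was called by edgeR; 2 had an unadjusted p under 0.05, both higher in mutants, beside the 6.52% higher and 4.04% lower of all genes, and the median log2 fold change was 0.0051. With the neuron score in the model 3 of the 14 were lower at an unadjusted p under 0.05 and none higher, beside 2.13% and 1.41% of all genes. That score was higher on average in mutants, so this fit cannot fully separate genotype from score. Gria2, an AMPA receptor subunit of the auditory nerve, went from 1.63 ± 0.599 to 4.97 ± 3.08 CPM (1.61, SE 0.41, adjusted p = 0.108 by edgeR), and was the 1 gene of this list that DESeq2 called, while limma-voom called none. Gria1 was the AMPA receptor subunit with the smallest p among those lower (−0.19, adjusted p = 0.761). Nlgn3, a postsynaptic adhesion protein, had 0.43 (SE 0.15, adjusted p = 0.233), and Nlgn2 −0.060 (adjusted p = 0.867). Gria3 and Gria4 lay at 65.8 ± 6.99 and 19.3 ± 2.39 CPM in controls and 73.4 ± 11.5 and 20.5 ± 4.12 CPM in mutants.

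**Figure D5:**
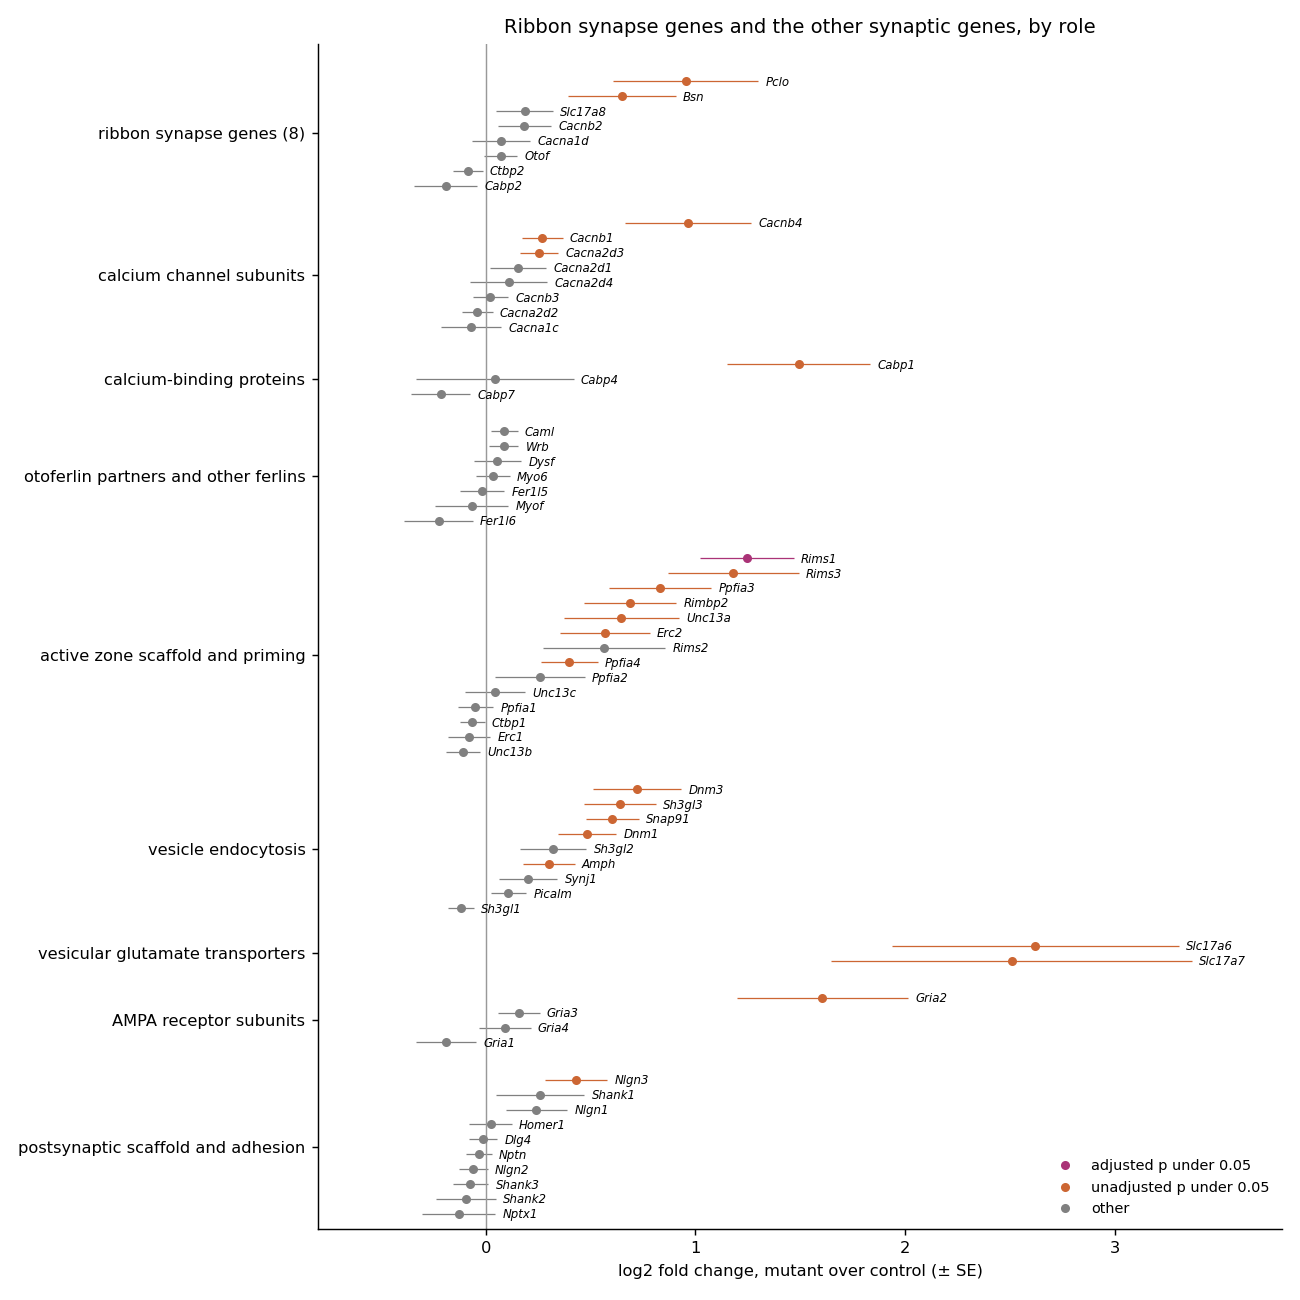
Log2 fold change, mutant over control, with its SE (horizontal axis) for the 8 ribbon synapse genes, the 43 presynaptic partners and the 14 postsynaptic genes tested, grouped by role and coloured by whether the p passed. Rims1 is the single gene with an adjusted p under 0.05, and every gene with an unadjusted p under 0.05 lies to the right of 0.

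The genes whose within-genotype deviations most resembled those of each member were looked up among 14191 others with a mean count of at least 50. Those most like Bsn were Plcb1, Scn8a and Dnm3 (Pearson r of 0.95, 0.94 and 0.94 over 12 mice), and those most like Pclo were Kif1b, Kcnq3 and Plekhm3 (0.99, 0.96 and 0.96). Scn8a is a sodium channel of axons, Kcnq3 a potassium channel of neurons and Kif1b a motor of axonal transport. The cell source of these relations was not tested, and Pclo also followed the length contrast. Cacna1d was most like Parp4, Rere and Fam184a (0.98 each), Cacnb2 like Cep72, Gcfc2 and Kctd18 (0.97, 0.96 and 0.92), and Ctbp2 like Fam35a, Pgm5 and Rbbp5 (0.96, 0.96 and 0.95). Otof was most like Igdcc3, Mroh7 and Lrp8 (0.90, 0.87 and 0.86), Slc17a8 like Rnase1, Tor4a and Gbp11 (0.96, 0.94 and 0.92), and Cabp2 like Cradd, Ogfod3 and Klhdc3 (0.95, 0.94 and 0.92). These are the highest of many correlations over 12 mice and are given as a description.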

How the data were processed

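RNA-seq of the cochlea of 6 control and 6 mutant mice was analysed, with groups and replicate numbers from the sample labels. The deposited values are raw counts of reads for each gene symbol and library, with no scaling or pooling by the authors. The submitters' processing notes name Trimmomatic 0.32, STAR 2.4.2a, HTSeq 0.9.1, DESeq2 1.10.1 and build GRCm38.p4. The annotation and the use of strand are not given in the sources used here. The authors also deposited a table of their own DESeq2 comparison (fold changes, p-values and adjusted p-values), which was not used.

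A mean of 5 counts or more over the libraries was required. edgeR 4.0.16 in R 4.3.3 (TMM, robust quasi-likelihood F-test, no covariates, 12 libraries) was the main test, with calls at an adjusted p under 0.05. The SE is the log2 fold change divided by the square root of F, and intervals are at 95%. Alternatives were DESeq2 1.42.0 without a prior, voom in limma 3.58.1, upper-quartile or RLE factors, a filter at 20 counts or none, the replicate number as a block, the hair cell or neuron score as a covariate, and leaving out each mouse. The length contrast and the score without Pvalb and Calb2 were added after the data were seen. Correlations used 100000 permutations. The fits were tested on simulated data. Coordinates and lengths come from GENCODE vM21 on GRCm38, where 94.8% of tested symbols matched. The notes on build were not checked against reads.

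The members, gene lists and tests were chosen with earlier results of these data known. Named are the 8 members, list genes with an adjusted p under 0.05, the gene of smallest p in each direction and role, close paralogs, the 3 genes most like each member, and Jag1. Myo7a, Sox2, Pvalb, Calb2, Slc7a14, Shtn1, Fgf8, Atp2a3, Tbx2, Gria3, Gria4 and Myo6 were named after their values were seen. For Cabp2 and Slc17a8, counting error is a sizeable part of the spread between mice. The counts are of reads without molecular identifiers, and counting errors cover counting only.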

Additional observations from a re-analysis of the deposited data

Results flagged for a closer look

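In 24 groups of 6 mice (the 8 members, Jag1 and the hair cell, inner hair cell and neuron scores, in each genotype), the highest or lowest mouse was compared with its nearest neighbour by Dixon's criterion, which chance meets in about 5% of groups. Cacnb2 in mutant 2 was set apart, at 29.9 CPM with the next mutant at 21.5 CPM. The neuron markers in mutant 4 had a geometric mean of 78.1 on the CPM scale, with the next mutant at 30.6. This flag holds for the CPM scale. On the log2 scale of the score used in the models, mutant 4 stood less far apart, at 6.29, with mutant 2 next at 4.94 and mutant 5 lowest at 2.92. Mutant 4 was also the highest mouse for Bsn and Pclo, whose own values did not meet the criterion.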

How the results depend on the processing

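No member was called by any of the 23 alternatives, and 178 of 184 member values kept their direction. The others changed sign: with the hair cell score as a covariate Otof (−0.0041) and Ctbp2 (0.11), with the neuron score Cacna1d (−0.050) and Bsn (−0.14), with the length contrast Cacna1d (−0.025), and without control 4 Cacna1d, whose values over the 12 left-out mice ran from −0.0027 to 0.16. The exact permutation results kept their side with a pseudocount of 1 and with RLE factors.

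Counts of called genes depended more on the method. Among all genes they were 619 by DESeq2, 19 by limma-voom, 57 with no filter, 3 with the hair cell score, 2 with the neuron score, 59 with the hair cell score without Pvalb and Calb2, and 14 to 356 without 1 mouse, the highest without mutant 5. Presynaptic partners called were 10 by DESeq2, 0 by limma-voom, 2 with no filter, 0 with either the hair cell or the neuron score, and 0 to 6 without 1 mouse. Rims1 was thus not called in most of the fits with 11 mice. Postsynaptic genes called were 1 by DESeq2 and 0 to 1 without 1 mouse. Relations with the marker scores that passed numbered 0 to 2 without 1 mouse. The causes were not tested.

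Mice with the same replicate number are not stated to be paired. Same-number deviations correlated between −0.19 and 0.28, above 0.1 in 3 of 6 pairs, and 2 of 6 controls correlated best with their own number. With the replicate block edgeR called 131 genes, 3 presynaptic partners (Rims1, Slc17a7 and Snap91) and no member, and 1 member had an unadjusted p under 0.05.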
